A study of Mus musculus with 2 samples.

Results

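The location of the chromatin remodeller SRCAP was examined at 8 genes of the TALE homeobox class, Meis1, Meis2, Meis3, Pbx2, Pbx3, Pbx4, Pknox1 and Pknox2, in mouse embryonic stem cells (mESCs). The 8 genes, of 21938 protein-coding genes, were chosen by name with earlier results of the same peak lists known, and their peaks were chosen by position alone. A peak was kept when its midpoint lay in the gene's own promoter (from 1000 bp upstream to 500 bp downstream of any annotated transcription start site, TSS), in the gene body, or within 50 kb of the gene. These windows held 44 of the 28718 peaks obtained with an antibody against GFP and 55 of the 28167 peaks obtained with an antibody against SRCAP. Because position selected the peaks, their counts are given as a description, without a test.

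Both libraries were made by CUT&RUN, a method that cuts out the DNA beside an antibody-bound protein with a tethered nuclease, from 100000 cells fixed in 0.1% formaldehyde for 5 min. The cells were SYAT mESCs, a CGR8 derivative grown from 1 homozygous clone, in which YPet and an auxin-inducible degron (AID) were knocked into both alleles of Srcap and OsTir1 was expressed from an EF1a promoter. Both groups shared this genotype and the routine culture with auxinole, an inhibitor of OsTir1 whose concentration has different units in the labels and in the methods, and were moved to serum and LIF medium before experiments. The GFP antibody (ab290) recognises the YPet tag and the SRCAP antibody (ESL-103) the protein, each diluted 50-fold in 1 library. The labels do not give a treatment for the single libraries, and in the study the CUT&RUN map is one of control SYAT cells. With 1 library per antibody no difference between antibodies was tested, and the 95% Wilson intervals given for shares account for counting error alone, because neither peaks nor genes are replicates. The lists carry 1 score per peak and no read counts, so the depth is unknown. In bulk cells, a site bound in few cells and a site bound weakly in many cannot be told apart, and peak lists hold no expression values against which the cell type could be checked.

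TALE proteins are transcription factors whose homeodomain carries an extended loop. MEIS proteins and their relatives PREP1 and PREP2, encoded by Pknox1 and Pknox2, pair with PBX proteins, and PBX and MEIS proteins also bind DNA together with HOX proteins. The family is best known for the patterning of the embryo and for blood formation, in which Meis1 sustains stem and progenitor cells. SRCAP is the ATPase of the complex that places the histone variant H2A.Z into nucleosomes.

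The sequences under the peaks shared by both antibodies inside the genes are shown first, because they are intervals inside the genes that both antibodies marked. They are given 5′ to 3′ on the strand of the gene, from the RefSeq genome sequence of GRCm38.p6, and where both peaks covered more than 300 bases the central 300 are shown. Capitals mark exact matches, on either strand, to TGACAG (a MEIS and PREP site), TGATTGAC (PBX with MEIS or PREP), TGATTNAT (PBX with HOX), ATGCAAAT (the octamer of POU factors), CCAAT (bound by NF-Y), CACGTG (an E box) or the CTCF consensus. For each gene the shared pair whose lower score was the highest was taken. In Pbx4 that pair lay over the annotated first exon, which is not shown.
Meis1 intron, chr11:18957651-18957950, minus strand: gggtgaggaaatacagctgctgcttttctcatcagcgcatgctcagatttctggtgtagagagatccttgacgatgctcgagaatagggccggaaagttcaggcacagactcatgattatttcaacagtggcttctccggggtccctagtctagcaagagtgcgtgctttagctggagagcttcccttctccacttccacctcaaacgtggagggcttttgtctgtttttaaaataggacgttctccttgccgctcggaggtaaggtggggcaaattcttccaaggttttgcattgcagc
Meis2 intron, chr2:115870028-115870204, minus strand: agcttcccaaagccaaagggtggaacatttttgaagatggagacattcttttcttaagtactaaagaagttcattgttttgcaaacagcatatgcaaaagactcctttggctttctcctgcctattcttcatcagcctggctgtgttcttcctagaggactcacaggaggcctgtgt
Pbx3 intron, chr2:34249619-34249859, minus strand: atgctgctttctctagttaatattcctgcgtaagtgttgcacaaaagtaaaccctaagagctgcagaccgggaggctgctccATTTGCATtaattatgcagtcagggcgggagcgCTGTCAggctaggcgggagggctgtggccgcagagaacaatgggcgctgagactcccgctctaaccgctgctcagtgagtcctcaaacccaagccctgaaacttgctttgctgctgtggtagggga
Pknox2 intron, chr9:37106923-37107222, minus strand: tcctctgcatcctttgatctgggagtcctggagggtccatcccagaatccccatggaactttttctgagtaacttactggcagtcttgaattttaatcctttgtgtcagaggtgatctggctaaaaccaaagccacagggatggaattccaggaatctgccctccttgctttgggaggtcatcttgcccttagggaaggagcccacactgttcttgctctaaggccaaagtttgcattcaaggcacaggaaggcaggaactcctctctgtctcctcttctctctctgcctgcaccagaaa

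The Meis1, Meis2 and Pknox2 intervals held no match. The Pbx3 interval held the octamer at base 83 and TGACAG at base 116, both on the opposite strand. A match describes the letters in the interval, and binding by these factors was not measured.

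The second set holds the promoter intervals of the members with a peak at a TSS. They are the 300 bases before the 5′ end of Meis3, Pbx3 and Pbx4, the stretch covered by both peaks at Pknox1, and the stretch covered by both peaks at a TSS inside Meis2.
Meis2 internal TSS, chr2:115872976-115873131, minus strand: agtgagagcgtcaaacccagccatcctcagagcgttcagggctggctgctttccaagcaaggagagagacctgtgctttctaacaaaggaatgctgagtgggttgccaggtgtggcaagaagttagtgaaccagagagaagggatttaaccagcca
Meis3 before the 5′ end, chr7:16174790-16175089, plus strand: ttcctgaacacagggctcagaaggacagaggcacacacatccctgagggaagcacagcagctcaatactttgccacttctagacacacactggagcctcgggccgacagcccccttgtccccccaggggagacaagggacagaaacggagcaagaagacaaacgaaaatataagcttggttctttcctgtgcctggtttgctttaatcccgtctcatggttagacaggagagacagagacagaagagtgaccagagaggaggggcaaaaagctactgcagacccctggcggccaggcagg
Pbx3 before the 5′ end, chr2:34373143-34373442, minus strand: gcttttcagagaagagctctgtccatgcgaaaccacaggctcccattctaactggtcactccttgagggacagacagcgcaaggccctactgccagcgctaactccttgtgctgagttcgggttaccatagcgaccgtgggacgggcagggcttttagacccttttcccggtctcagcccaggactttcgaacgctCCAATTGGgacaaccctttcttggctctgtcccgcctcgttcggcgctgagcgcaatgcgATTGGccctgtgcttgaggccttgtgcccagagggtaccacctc
Pbx4 before the 5′ end, chr8:69832191-69832490, plus strand: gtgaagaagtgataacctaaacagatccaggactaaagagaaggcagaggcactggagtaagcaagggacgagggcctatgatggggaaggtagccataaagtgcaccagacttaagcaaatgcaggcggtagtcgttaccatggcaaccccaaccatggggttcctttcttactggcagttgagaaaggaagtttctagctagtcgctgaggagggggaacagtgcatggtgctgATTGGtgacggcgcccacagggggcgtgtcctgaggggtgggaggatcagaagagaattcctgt
Pknox1 promoter, chr17:31564313-31564520, plus strand: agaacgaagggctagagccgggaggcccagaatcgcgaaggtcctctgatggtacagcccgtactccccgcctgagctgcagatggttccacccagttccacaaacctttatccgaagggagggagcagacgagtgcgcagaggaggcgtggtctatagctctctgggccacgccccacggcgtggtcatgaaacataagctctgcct

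In the Pbx3 promoter CCAAT was found at base 197 on the strand of the gene and at bases 200 and 257 on the opposite strand, the first pair overlapping. In the Pbx4 promoter it was found at base 237 on the opposite strand. Among the 32851 promoters listed by RefSeq for this genome, 37.4% held CCAAT, so these matches were common ones. The shared interval of Pknox1 lay within the exon of a non-coding antisense transcript and held 13 CpG dinucleotides in 208 bases.

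A peak at the gene's own promoter was listed with the GFP antibody for Meis2, Pbx3, Pbx4 and Pknox1 and with the SRCAP antibody for these and Meis3. That made 4 of 8 members with the GFP antibody (50.0%, interval 21.5 to 78.5), against 35.0% of all protein-coding genes. With the SRCAP antibody it made 5 of 8 (62.5%, 30.6 to 86.3), against 35.7%. Both lists had a promoter peak for 4 members, against 27.0% of all protein-coding genes. All 3 background shares lay inside the intervals of the members. Meis1, Pbx2 and Pknox2 had no promoter peak in either list.

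**Figure D1:**
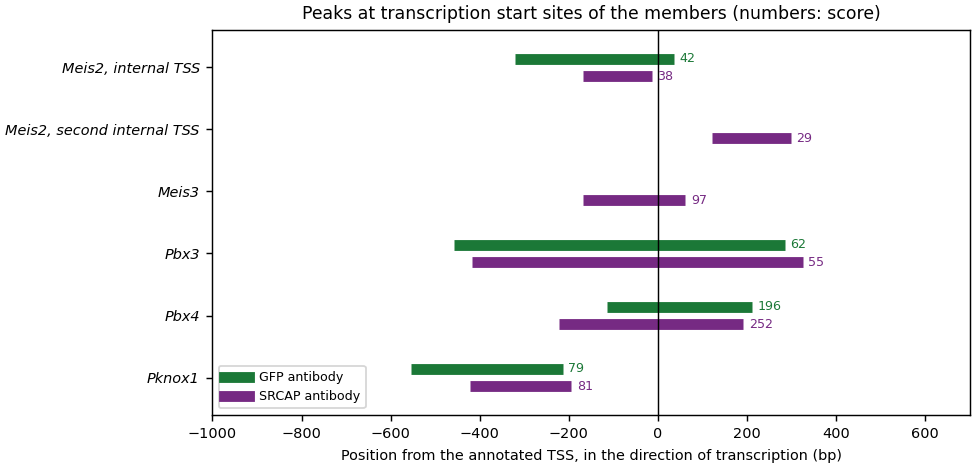
Peaks at the annotated TSSs of 5 members, drawn as bars from peak start to peak end in bp from the TSS in the direction of transcription, green for the GFP antibody and purple for the SRCAP antibody, with the score beside each bar. The bars of both antibodies cross the TSS at Pbx3 and Pbx4, end upstream of it at Pknox1, and only the SRCAP bar is present at Meis3 and at the second Meis2 site.

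Pbx4 had the promoter peaks of highest score. The GFP peak, chr8:69832378-69832702, had a score of 196, at the 97.5 percentile of its list, and its midpoint lay 49 bp downstream of the TSS. The SRCAP peak, chr8:69832269-69832683, had a score of 252, at the 98.6 percentile, with its midpoint 15 bp upstream. They overlapped over 306 bp.

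At Pbx3 the 2 peaks covered nearly the same stretch across the TSS. The GFP peak, chr2:34372857-34373599, scored 62 and the SRCAP peak, chr2:34372816-34373559, scored 55, and 703 bp were common to both. Only the most upstream of the annotated coding starts of Pbx3 had these midpoints in its window.

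At Pknox1 both peaks lay wholly upstream of the TSS. The GFP peak scored 79 with its midpoint 384 bp upstream, and the SRCAP peak scored 81 with its midpoint 307 bp upstream. At Meis3 the SRCAP peak, chr7:16174923-16175152, scored 97, at the 85.2 percentile, with its midpoint 52 bp upstream of the TSS, and the nearest GFP peak was 44980 bp away.

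The promoter peaks of Meis2 stood apart from the others, because none lay at a coding TSS. A GFP peak with a score of 42 and a SRCAP peak with a score of 38 met at starts of short non-coding transcripts 193 kb inside the gene, near its 3′ end. A further SRCAP peak with a score of 29 lay at the start of another non-coding transcript 23.8 kb inside the gene. The windows of the coding starts of Meis2 were empty in both lists. When only the TSSs of protein-coding transcripts were used, a promoter peak was listed for 3 members (GFP) and 4 members (SRCAP). The share of all protein-coding genes under this rule is not given here, so these counts have no like value beside them.

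The members differed in the CpG content of their 5′ ends. The ratio of observed to expected CpG in 300 bases around the 5′ end, 250 of them upstream, was highest at Pknox1 (0.802), followed by Meis2 (0.761), Pbx3 (0.690) and Meis1 (0.670). It was 0.420 at Pknox2, 0.369 at Pbx4, 0.348 at Pbx2 and 0.346 at Meis3. Meis1 was thus among the CpG-rich promoters (ratio of at least 0.6 and GC of at least 50%), of which 52.6% had a GFP peak and 54.1% a SRCAP peak over all protein-coding genes, and had neither. Pbx4 was by this window among the remaining promoters, of which 22.6% and 22.7% had one, and had both. In 500 bp centred on its promoter peaks, however, the ratio was 0.732 with 61.2% GC for the GFP peak and 0.660 with 58.6% GC for the SRCAP peak, past both thresholds, so its class depends on the window.

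Every member had at least 1 peak in its locus in both lists, which was also the case for 79.6% of all protein-coding genes in the GFP list and for 80.5% with the SRCAP antibody. The number of peaks differed widely between members. Pbx4 had 13 with each antibody, and 99.3% of protein-coding genes had fewer in either list. For the remaining members this share ran from 35.4% (Meis3) to 80.0% (Meis2 and Pbx2) in the GFP list. In the SRCAP list it ran from 62.9% (Meis3) to 98.5% (Pknox2). These shares compare counts and do not correct for the length of the locus. Pknox2 had 5 GFP peaks and 11 SRCAP peaks, the widest gap between the antibodies. Meis2 had 6 in each list and Meis1 had 5 in each. The other 4 members had between 2 and 6.

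**Figure D2:**
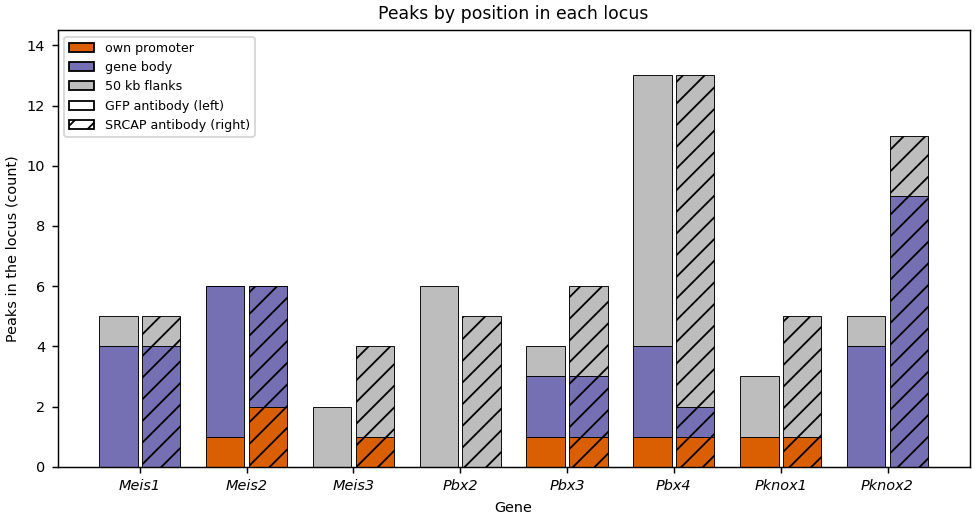
Number of peaks in the locus of each gene, stacked by position (own promoter, gene body, 50 kb flanks), with plain bars for the GFP antibody and hatched bars for the SRCAP antibody. Peaks of Meis1, Meis2 and Pknox2 lie mostly in the gene body, whereas those of Meis3, Pbx2, Pbx4 and Pknox1 lie mostly in the flanks.

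Of the 44 GFP peaks, 4 lay in own promoters, 18 in gene bodies (17 intronic and 1 in a coding exon) and 22 in flanks. Of the 55 SRCAP peaks, 6 lay in own promoters, 20 in gene bodies, all intronic, and 29 in flanks. Of the flank peaks, 12 of the 22 GFP and 15 of the 29 SRCAP peaks had their midpoint in the promoter of another protein-coding gene, and 10 and 14 did not. Over all peaks of each list, whatever their distance from a gene, 26.7% (GFP) and 27.6% (SRCAP) lay in the promoter of a protein-coding gene. The share among flank peaks of all protein-coding genes was not computed, so the flank counts have no like value beside them.

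The density over the 8 loci together was 25.9 per Mb for GFP peaks and 32.3 per Mb for SRCAP peaks, against 10.8 and 10.6 over the genome. The genome values include stretches far from any gene. A density for the same windows around all protein-coding genes was not computed, so a higher value here cannot be read as particular to these genes. The chromosomes that carry the members also differed in density, from 11.7 on chromosome 2 to 20.3 on chromosome 8 with the GFP antibody, and from 11.4 on chromosome 9 to 23.6 on chromosome 8 with the SRCAP antibody. Without Pbx4, the member on chromosome 8, the densities were 19.9 and 26.9 per Mb.

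The map of peaks along the loci shows where in each locus the peaks lay. In Meis1, Meis2 and Pknox2 most peaks lay between the ends of the gene, and at Meis3, Pbx2, Pbx4 and Pknox1 most lay in the promoter or the flanks. At Pbx3, 2 of the 4 GFP peaks and 2 of the 6 SRCAP peaks lay in the gene body outside the promoter. The 4 members of at least 100 kb, Meis1, Meis2, Pbx3 and Pknox2, all had a gene body peak outside the promoter in both lists, against 66.5% of protein-coding genes of that length with the GFP antibody, 68.1% with the SRCAP antibody and 57.3% with both. Of the shorter members Pbx4 had 3 GFP peaks and 1 SRCAP peak there, and Meis3, Pbx2 and Pknox1 had none.

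**Figure D3:**
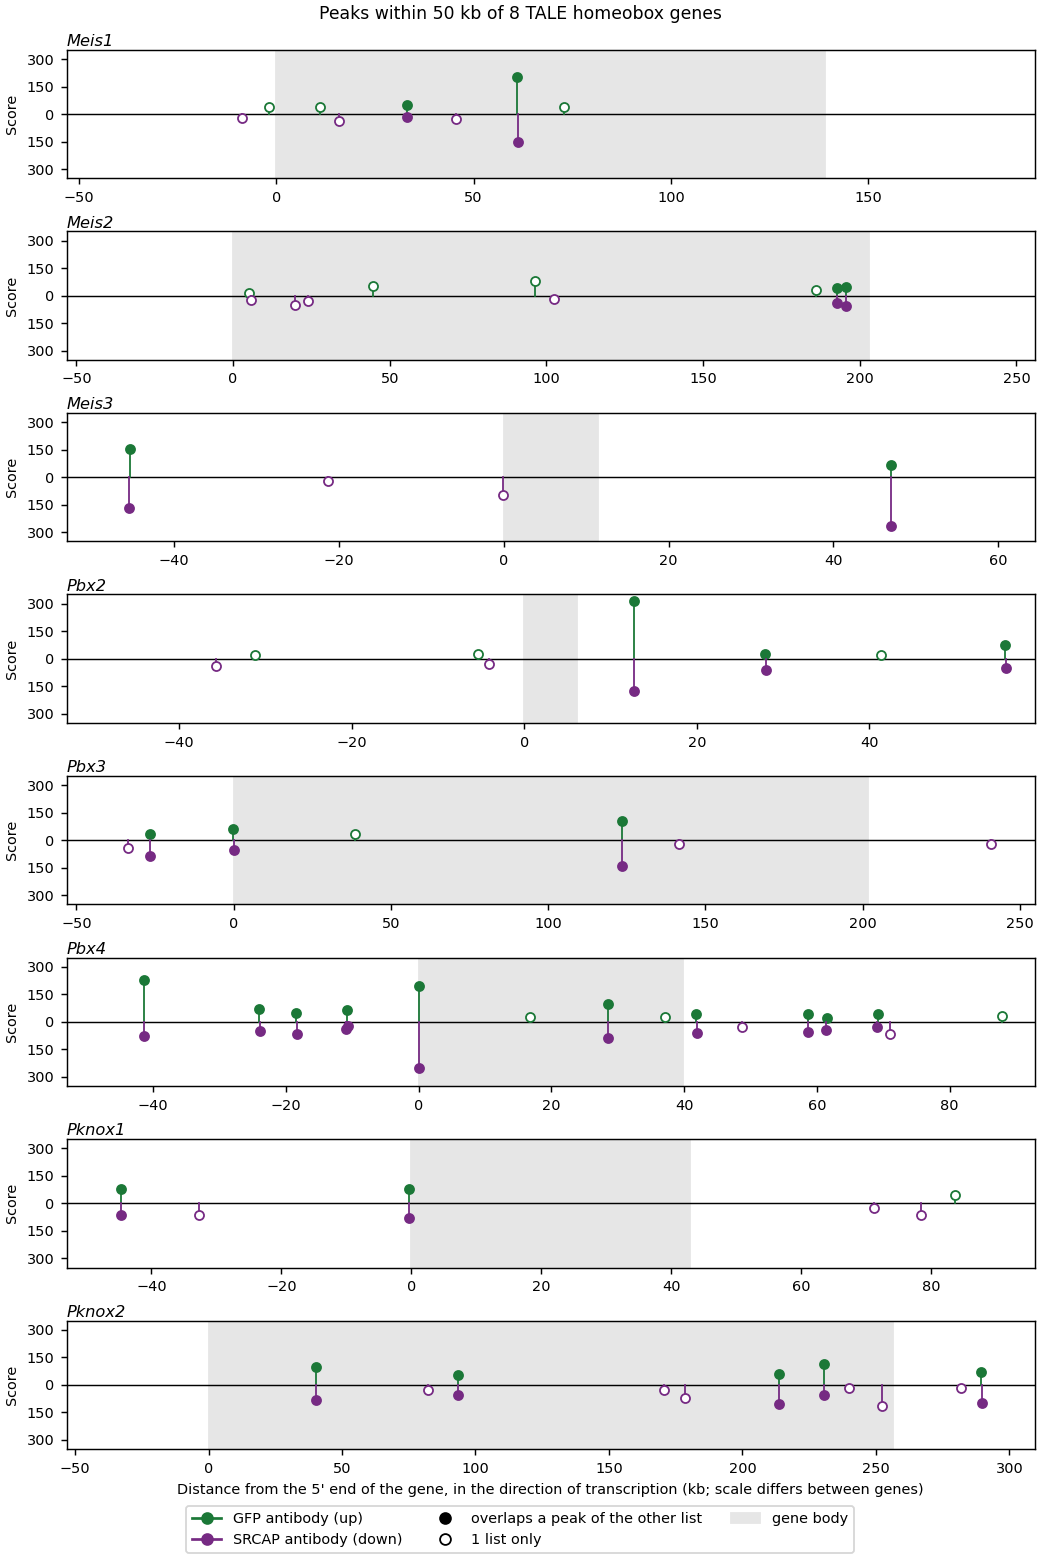
Peaks in the 8 loci, placed by their midpoint in kb from the 5′ end of the gene, with the GFP score above the line and the SRCAP score below it. Filled circles overlap a peak of the other list, open circles do not, and grey marks the gene body. The shared pairs with scores of at least 150 in both lists lie in an intron of Meis1, at the promoter of Pbx4, and in the flanks of Meis3 and Pbx2.

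Meis1 (chr11:18879817-19018985, minus strand) had 4 intronic peaks and 1 upstream peak with each antibody. The pair of highest score lay in an intron 61.1 kb from the 5′ end, where the GFP peak scored 200 and the SRCAP peak 150, at the 97.6 and 94.8 percentiles. Its sequence is the first of those shown, with 10 CpG dinucleotides in 300 bases. A second pair, 33.2 kb from the 5′ end, was weak with the SRCAP antibody, with scores of 47 and 18. The other 3 peaks of each list did not overlap, and the distance from each GFP peak to the nearest SRCAP peak was between 4701 and 11346 bp. The GFP peak nearest to the promoter scored 41 and lay 1881 bp upstream, outside the promoter window. Gene body peaks amounted to 2.87 per 100 kb in both lists, where the median of the 2492 protein-coding genes of this length was 0.606 and 0.637.

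Meis2 (chr2:115863064-116065839, minus strand), the closest relative of Meis1, had all its peaks within the gene. The strongest pair lay in an intron near the 3′ end, 196 kb from the 5′ end, with scores of 49 and 58, and the pair at the internal TSS lay about 3 kb from it. The single-list peaks included the strongest GFP peak of the gene, with a score of 81 at 96.4 kb, whose nearest SRCAP peak was 5776 bp away. The 1 peak in a coding exon among all members was a GFP peak at 5.14 kb with a score of 15, at the 0.4 percentile of its list, and it lay 247 bp from a SRCAP peak with a score of 23. No peak of either list was found within 50 kb outside the gene.

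Meis3 (chr7:16175090-16186504, plus strand) had no gene body peak. Its shared pairs lay at neighbouring promoters, one 45.4 kb upstream at Slc8a2, a sodium-calcium exchanger, with scores of 156 and 167. The other lay 47.0 kb from the 5′ end at Dhx34, an RNA helicase of nonsense-mediated decay, where the GFP score was 66 and the SRCAP score 267. The remaining peaks were the SRCAP peak at the promoter and a SRCAP peak with a score of 23 inside Slc8a2.

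Pbx2 (chr17:34591266-34597400, plus strand) had 6 GFP and 5 SRCAP peaks, none in the gene or its promoter. The strongest pair, 12.7 kb from the 5′ end, lay at the promoters of Agpat1, an acyltransferase of phospholipid synthesis, and Rnf5, a ubiquitin ligase. Its GFP score of 316 was the highest of all peaks at the 8 loci, and its SRCAP score was 174. A pair at the promoter of Atf6b, a transcription factor of the unfolded protein response, scored 76 and 53. A pair inside Ppt2 scored 25 and 60, and repeats made up 49.0% of its GFP peak and 55.7% of its SRCAP peak. At the promoters of the Notch receptor gene Notch4 a GFP peak with a score of 25 and a SRCAP peak with a score of 29 lay 993 bp apart.

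Pbx3 (chr2:34171457-34373142, minus strand) had 4 GFP and 6 SRCAP peaks, 3 of each shared. Its strongest pair lay in an intron 123 kb from the 5′ end, with scores of 103 and 142, and is the interval shown above with the octamer and TGACAG. Upstream, 26.6 kb from the 5′ end, a pair outside any promoter scored 33 (GFP) and 87 (SRCAP). The single-list peaks scored between 18 and 40, and 1 of them was a SRCAP peak at the promoter of Mapkap1, which encodes a subunit of mTORC2.

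Pbx4 (chr8:69832491-69872292, plus strand) had 10 of its 13 GFP peaks and 11 of its 13 SRCAP peaks shared. Besides the promoter pair, an intronic pair 28.5 kb from the 5′ end scored 98 and 88. The other pairs lay in the flanks, mostly at promoters. A pair at Atp13a1 and Zfp866, 41.4 kb upstream, scored 230 (GFP) and 79 (SRCAP). Pairs also lay at promoters of Gmip (2 pairs), of the lysophosphatidic acid receptor Lpar2, of Yjefn3 and of the testis kinase Tssk6, with GFP scores from 19 to 71 and SRCAP scores from 27 to 69. At Lpar2 a single GFP peak of 683 bp was overlapped by 2 SRCAP peaks, with scores of 37 and 25. A SRCAP peak with a score of 68 at the promoters of Ndufa13, a subunit of respiratory complex I, and Yjefn3 did not overlap a GFP peak, and the nearest was 1230 bp away.

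Pknox1 (chr17:31564734-31607693, plus strand), the gene of PREP1, had its promoter pair and no gene body peak. A second pair, 44.8 kb upstream at the promoters of Ndufv3, another complex I subunit, and Wdr4, of a tRNA methyltransferase, scored 76 and 63. The remaining GFP peak scored 43, and the 3 remaining SRCAP peaks scored 65, 65 and 23.

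Pknox2 (chr9:36890982-37147407, minus strand), the gene of PREP2, had 4 intronic GFP peaks and 9 intronic SRCAP peaks, the latter the most of any member. All 5 of its GFP peaks, 1 of them in the downstream flank, were matched by a SRCAP peak. The intronic pairs scored 100 and 82 at 40.2 kb, 54 and 55 at 93.3 kb, 61 and 103 at 214 kb, and 113 and 53 at 231 kb from the 5′ end. The 5 intronic SRCAP peaks without a GFP partner scored 116, 69, 29, 29 and 18. Its SRCAP density of 3.51 gene body peaks per 100 kb exceeded that of 97.0% of protein-coding genes of at least 100 kb, and its GFP density of 1.56 that of 79.9%.

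At the outer limit of 50 kb, the values on either side were mixed. The peaks nearest to the limit on the inside scored 53 (SRCAP, 49680 bp from Pbx2), 76 (GFP, 49581 bp from Pbx2) and 32 (GFP, 48067 bp from Pbx4). The nearest on the outside scored 23 (SRCAP, 50791 bp from Meis3), 56 (SRCAP, 51284 bp from Pknox1) and 69 (GFP, 51312 bp from Pknox1). The next peaks beyond Pknox2, at 60783 and 60747 bp, scored 246 and 369, more than any peak counted at that gene.

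Agreement between the antibodies depended on the score. Over the loci, 29 of the 44 GFP peaks were shared with the SRCAP list (65.9%, interval 51.1 to 78.1), against 56.2% of the whole list. Of the SRCAP peaks 30 of 55 overlapped a GFP peak (54.5%, 41.5 to 67.0), against 57.7%. Of GFP peaks at or above the list's median score of 47, 22 of 24 were shared (91.7%, 74.2 to 97.7), and below it 7 of 20 (35.0%, 18.1 to 56.7). The SRCAP peaks gave 25 of 32 (78.1%, 61.2 to 89.0) and 5 of 23 (21.7%, 9.66 to 41.9). Over the whole lists the shares were 75.2% and 36.2% for GFP and 74.4% and 39.6% for SRCAP, so a fall of the same direction was present in all peaks.

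By position, the promoter peaks were shared in 4 of 4 cases with the GFP antibody and 4 of 6 with the SRCAP antibody. Flank peaks at a neighbouring promoter were shared in 11 of 12 and 12 of 15 cases. Gene body peaks were shared in 9 of 18 and 9 of 20, and flank peaks outside promoters in 5 of 10 and 5 of 14. The same order of promoters above other positions was present in the whole lists, where 68.8% of the GFP and 68.4% of the SRCAP peaks in promoters of protein-coding genes were shared, 48.8% and 50.5% of those in gene bodies outside promoters, and 53.9% and 56.1% of those outside both. Unshared peaks of the 8 loci had a median score of 32 (GFP) and 29 (SRCAP), against 35 and 34 for all unshared peaks. Shared ones had 67 and 62.5, against 61 and 60.

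**Figure D4:**
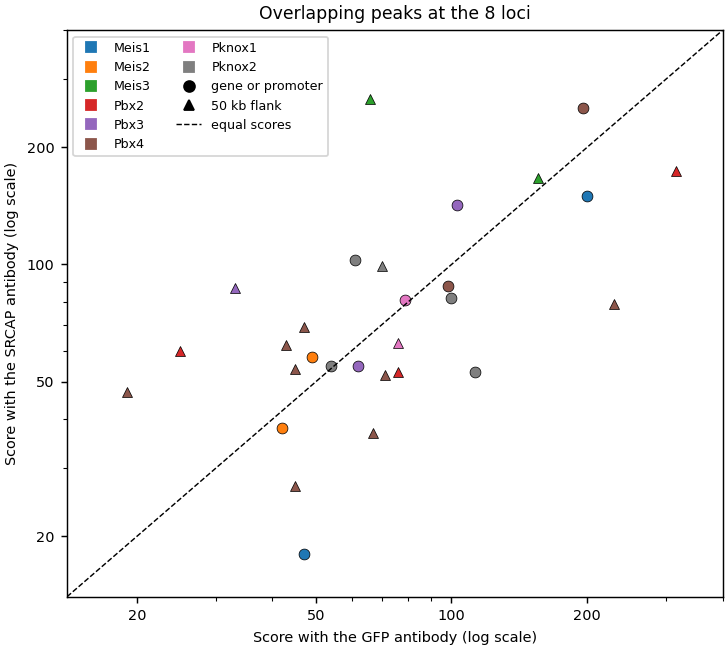
Scores of the 29 overlapping pairs, GFP antibody on the x axis and SRCAP antibody on the y axis, both on log scales, with colour for the gene, circles for pairs in a gene or its promoter, triangles for flank pairs, and a dashed line at equal scores. Points lie on both sides of the line, and the triangles at Dhx34 near Meis3 (66 and 267) and at Atp13a1 near Pbx4 (230 and 79) lie far from it.

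Among the 29 pairs the GFP score was the higher in 14 and the SRCAP score in 15. Because the meaning of the score and the depth of the libraries are unknown, these counts do not compare signal between the antibodies. Both scores were at or above the list median in 20 pairs. The midpoints of a pair lay between 8 and 192 bp apart, with a median of 64 bp. The scores of a pair had a Spearman rho of 0.542 and, on the log10 scale, a Pearson r of 0.584 over the 29 pairs. Both are given as a description because pairs of one locus share the library and the neighbourhood. Like values over all overlapping peaks of the lists are not given here. The agreement within pairs therefore cannot be read as particular to these loci.

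The motifs that TALE proteins bind were found at the centres of few of these peaks, and only the GFP share had an interval below that of all peaks. In 200 bp at the midpoint, 1 of 44 GFP peaks held any of TGACAG, TGATTGAC and TGATTNAT (2.27%, 0.402 to 11.8), against 14.3% of all GFP peaks. For the SRCAP peaks it was 4 of 55 (7.27%, 2.86 to 17.3), against 14.3%, which lay inside the interval. All of these matches were to TGACAG, in the Pbx3 intron with both antibodies and, with the SRCAP antibody, in Meis2, upstream of Pknox1 and in Pknox2. In 500 bp the shares were 29.5% (18.2 to 44.2) and 21.8% (12.9 to 34.4), against 32.2% and 32.9% of all peaks, both inside the intervals.

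**Figure D5:**
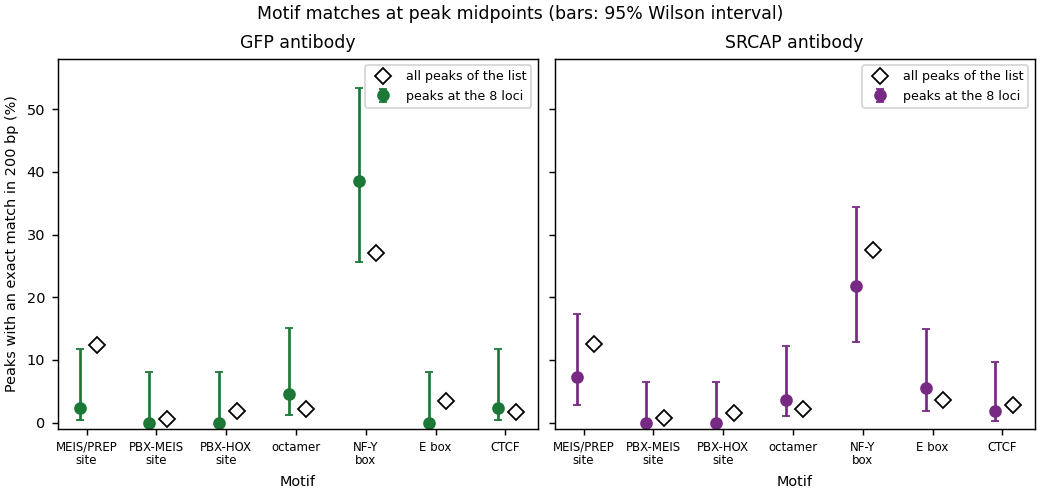
Percentage of peaks with an exact motif match in 200 bp at the midpoint, for the peaks at the 8 loci (filled circles with 95% Wilson intervals) and for all peaks of the list (open diamonds), with the GFP antibody on the left and the SRCAP antibody on the right. The interval of the locus peaks lies below the diamond only for the MEIS and PREP site with the GFP antibody.

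The octamer was found in 2 GFP and 2 SRCAP peaks, among them the intronic pair of Pbx3 (4.55% and 3.64%, against 2.21% and 2.20% of all peaks). CCAAT was found in 38.6% of the GFP peaks (25.7 to 53.4, against 27.0%) and 21.8% of the SRCAP peaks (12.9 to 34.4, against 27.5%). CACGTG was found in none of the GFP peaks (upper limit 8.03%), against 3.53% of all peaks. In the SRCAP list it was found in 5.45% (1.87 to 14.9), against 3.61%. Both shares of all peaks lay inside the intervals. The CTCF consensus was found in 1 peak of each list, the pair inside Yjefn3 downstream of Pbx4. That made 2.27% (0.402 to 11.8) of the GFP and 1.82% (0.322 to 9.61) of the SRCAP peaks, against 1.65% and 2.88% of all peaks.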

How the data were processed

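CUT&RUN libraries of SYAT mESCs were assigned to the antibody named in their titles, 1 library for each. Per the labels, inserts of 250 bp were selected and sequenced as paired reads of 75 nt. The methods of the study give CUT&RUN for the SRCAP antibody alone, and the GFP library is taken as CUT&RUN from its labels. The submitters' processing notes name STAR, Picard and MACS2 and the builds mm10 and dm6, without roles. For each library the authors deposited a list of peak coordinates, which fit GRCm38 (mm10), with a score for every peak. The meaning of the deposited score is not given in the sources used here. Its minimum of 13 in both lists equals 10 times -log10 of 0.05 with the decimals dropped. Scores served to order and filter peaks within a list, and those of overlapping peaks were set side by side as a description only. No processing is described for CUT&RUN by name. For ChIP-seq and CUT&Tag the study describes duplicate removal, peak calling against an input and exclusion of blacklisted regions, and whether the deposited lists were made in this way is not given in the sources used here. Both lists hold peaks on the mitochondrial genome. No blacklist was applied and no control antibody analysed here, which can change which peaks are listed.

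The members and gene lists were chosen with earlier results of these data known. All 8 members were named, a neighbouring gene where a peak lay in its promoter, and other TALE-class genes with a promoter or gene body peak. Peaks were placed by their midpoint on GENCODE vM21 genes (GRCm38), and a peak was called shared when it overlapped the other list by at least 1 bp. This step was computed in Python 3.11.15 with numpy 2.4.6, pandas 2.3.3 and pysam 0.24.0, and bedtools 2.31.1 gave the same 16138 and 16248 shared peaks. Backgrounds were computed over all 21938 protein-coding genes or all peaks. Wilson intervals were from scipy 1.17.1 and plots from matplotlib 3.10.9. GC content was computed in 500 bp and motif matches in 200 bp at the midpoint. Sequences were read from the RefSeq GRCm38.p6 genome, 1 of them is not reported here, and 5 of the 8 members had an entry in the RefSeq promoter table used for the background. Tests on simulated data of the steps for overlaps, promoters and motifs recovered 800 of 800, 500 of 500 and 500 of 500 planted cases. The planted cases were copies of GFP peaks, known offsets from TSSs, and TGATTGAC in sequence of C and G alone. They check the code, and not how the steps perform on real peaks. The closing section gives the alternatives tried.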

Additional observations from a re-analysis of the deposited data

How the results depend on the processing

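No paired analysis was possible because there was 1 library per antibody. With flanks of 10 kb the loci held 26 GFP and 31 SRCAP peaks, and with flanks of 100 kb 60 and 73. Restricted to scores no lower than the list median, they held 24 and 32, with densities of 14.1 and 18.8 per Mb, and 83.3% of these GFP peaks overlapped a SRCAP peak filtered in the same way. The share of peaks with any of the TALE motifs was 29.5% and 21.8% in windows of 500 bp, which hold more bases than the 200 bp of the reported value. Over all alternatives, 33 values of the main results moved by less than their counting interval or 1.5 times and 9, given here, moved by more. Genes with an own promoter peak numbered 3 to 5 with the GFP antibody and 4 or 5 with the SRCAP antibody under the alternatives. Shares of all protein-coding genes under these alternatives are not given here, so the counts have no like value beside them. A window of 2500 bp either side of the TSS added Meis1 with the GFP antibody. A reciprocal overlap of at least 50% left 52.3% of GFP and 41.8% of SRCAP peaks shared, and without Pbx4 the shares were 61.3% and 45.2%. The unknown depth limits what the absence of a peak from a list can show.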

Other observations

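The same counts were made for the other TALE-class genes. Of 9 such genes (the TGIF, IRX and Mkx genes), 1 had a GFP peak at its own promoter (11.1%, interval 1.99 to 43.5) and 4 a SRCAP peak (44.4%, 18.9 to 73.3). The shares over all protein-coding genes, 35.0% and 35.7%, lay inside these intervals. Irx6 had both, with scores of 46 and 64, and the midpoints lay 783 and 700 bp upstream of the TSS. Tgif2, a repressor of TGF-beta signalling, had a SRCAP promoter peak with a score of 17 and intronic peaks with scores of 37 (GFP), 47 and 47 (SRCAP). Mkx, a regulator of tendon development, had a SRCAP promoter peak with a score of 29 and an intronic GFP peak with a score of 36. Irx1 had a SRCAP promoter peak with a score of 40 and no GFP peak in its locus. That SRCAP peak lay at an annotated TSS inside the gene, 4.13 kb from the 5′ end. Irx4 had a coding exon peak with scores of 56 and 100 and an intronic SRCAP peak with a score of 18, and Irx5 had intronic peaks with scores of 30 (GFP) and 25 (SRCAP). The 9 loci held 23 GFP and 24 SRCAP peaks. At least 1 peak was present in 7 of them with the GFP antibody and in 8 with the SRCAP antibody, against 79.6% and 80.5% of all protein-coding genes.

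The peaks at the 8 MEIS, PBX and PKNOX loci had a median GC content of 52.5% (GFP) and 52.2% (SRCAP). Repeats made up a median of 4.61% and 4.84% of a peak, and 19 and 23 peaks held none. Only 1 peak, the SRCAP peak inside Ppt2 near Pbx2, was more than 50% repeat. Values over all peaks of the lists are not given here, so these cannot be read as particular to the loci.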
